A study of Mus musculus with 12 samples.

Results

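The change in translational efficiency with the PPARγ agonist rosiglitazone (Rosi) was measured as a statistical interaction between RNA fraction and treatment. For each gene or transcript it is the log2 fold change of Rosi over vehicle (Veh) in polysome RNA minus the same log2 fold change in total RNA, called input. A value above 0 means that the mRNA gained share in the polysome libraries relative to its share in input, and a value of 0 means that polysome RNA followed input. All features that passed a minimum of reads were members, with no selection on the outcome. These were 14042 of 35523 genes and 34654 of 117135 transcripts, measured in 11 of the 12 deposited libraries.

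The cells were the stromal vascular fraction (SVF) of epididymal fat from 12-week-old male Lepob/Lepob (ob/ob) mice, which lack leptin and are obese, and all groups shared this genotype, so no lean cells entered the comparison. All cells were differentiated in culture to day 4 with 3-isobutyl-1-methylxanthine, dexamethasone and insulin plus either 1 µM Rosi or DMSO as Veh, and cycloheximide was added shortly before lysis. Input was total RNA, and polysome was RNA pooled from the sucrose gradient fractions of mRNAs that carried several ribosomes, with a minimum of 3 in the series text and a higher one in the article, so mRNAs on fewer ribosomes were seen only in input. The 4 groups were Veh and Rosi in input and Veh and Rosi in polysome RNA, with 3 deposited libraries each. Replicates 2 and 3 of input Veh held identical values, so they entered once and input Veh had n = 2. The labels call the libraries biological replicates, but no source says how many animals a culture held, so p-values measure the spread between these libraries only.

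The libraries held 17.4 to 24.0 M estimated reads. The first principal component held 50.2% of the variance and separated polysome from input, and polysome Veh replicate 1 lay apart on it at -53.1, against -27.2 and -21.4 for replicates 2 and 3. Among 12 lymphocyte markers 11 were under 1 CPM (counts per M of the scaled library) in every library, and among 12 epididymis markers 10 were. The epididymis list was carried by Crisp1, a secreted protein of that organ, and summed to 113 to 126 CPM in input Veh and 73.0 to 92.2 CPM in input Rosi, and to 156 to 258 CPM in polysome Veh and 134 to 162 CPM in polysome Rosi. Crisp1 had log2 fold changes of -0.56 in input (adjusted p = 0.193) and -0.41 in polysome RNA (adjusted p = 0.670), and its part in other results was not tested. Adipocyte markers summed to 879 to 960 CPM in input Veh and 1991 to 2362 CPM in input Rosi, with 5 of 27 under 1 CPM throughout. In polysome RNA they summed to 942 to 1102 CPM in Veh and 2784 to 3268 CPM in Rosi. The 26 macrophage markers summed to 21956 to 25222 CPM in input Veh and 16474 to 19004 CPM in input Rosi, and to 21280 to 26665 CPM in polysome Veh and 19236 to 23865 CPM in polysome Rosi. The 12 smooth muscle and pericyte markers summed to 12619 to 12780 CPM in input Veh and 11198 to 11763 CPM in input Rosi. In polysome RNA they summed to 8849 to 9508 CPM in Veh and 8557 to 10234 CPM in Rosi. In such bulk libraries fewer cells of a type and less RNA per cell cannot be told apart.

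As background, a cell can change the output of a protein without changing its mRNA by loading more or fewer ribosomes onto that mRNA, and a polysome gradient separates mRNAs by that load. The 5′ untranslated region (5′ UTR) holds several known switches. Runs of pyrimidines at the very first base (TOP motifs) tie mRNAs of the translation machinery to mTOR signalling, runs of G can fold into G-quadruplexes that slow scanning ribosomes, and an A-rich stretch lets the poly(A)-binding protein Pabpc1 bind and repress its own mRNA. PPARγ itself is a transcription factor that switches on the adipocyte programme, and Rosi is its ligand.

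Some 5′ UTR stretches are shown because the letters in this region were set against the translational efficiency change below. The sequences are of GENCODE M21 transcripts (mm10), written as DNA on the strand of the mRNA. In the first, of Pabpc1-201 (chromosome 15, minus strand, bases 1 to 30 of a 467-base 5′ UTR), capitals mark the opening run of pyrimidines. In the second (bases 105 to 134 of the same 5′ UTR) capitals mark A. The others are the 30 bases with most G in the 5′ UTRs of Zfp451-202 (chromosome 1, minus strand, bases 112 to 141), Stx6-201 (chromosome 1, plus strand, bases 1 to 30), Tcf12-220 (chromosome 9, minus strand, bases 131 to 160) and Pnpla2-206 (chromosome 7, plus strand, bases 9 to 38), with runs of at least 3 G in capitals.
Pabpc1-201, 5′ end: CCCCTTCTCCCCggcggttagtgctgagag
Pabpc1-201, A-rich stretch: gAAAAAAcccAAAAAAAAtttAcAAAAAAA
Zfp451-202: GGGcGGGtcgcgcggcgccGGGcgagaGGG
Stx6-201: ggaggaggctgccgtGGGGGccggcttgga
Tcf12-220: cgcagccgccggcggcgcgtGGGGaGGGGG
Pnpla2-206: ggcggagaccccaaggtatcgagactgcgg

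The first question was which genes changed translational efficiency with Rosi. No gene passed an adjusted p under 0.05 with an absolute log2 fold change over 1 (0 of 14042 genes, 0.0%, edgeR's quasi-likelihood test with Benjamini-Hochberg adjustment). The smallest adjusted p was 0.163. At an unadjusted p under 0.05 there were 961 genes (6.84%), of which 626 were higher (4.46%) and 335 lower (2.39%). By DESeq2 on the same libraries 0 genes passed both limits and 11 passed the adjusted p alone, 10 lower and Samd9l higher. The median change over all genes was 0.06 on the log2 scale, and the middle 90% of genes lay between -0.56 and 0.63.

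The libraries set a bound on what could have gone unseen. The median standard error (SE) of a gene's change was 0.204, and the 95% interval lay wholly within 1 log2 unit of 0 for 10576 genes (75.3%). Among the 5668 genes whose mean log2 CPM reached 5 that share was 98.3%. For most well expressed genes a 2-fold change in either direction was therefore outside the interval, and the intervals of rare mRNAs were wider.

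One library carried weight in the count. Without polysome Veh replicate 1, 9 genes passed both limits and 2047 had an unadjusted p under 0.05. The 9 were chosen by that fit. Lamb1, a laminin chain of basement membranes, was at 3.45 in that fit and at 1.11 with all 11 libraries (adjusted p = 0.819). Ogn, a small proteoglycan of the matrix, went from 1.03 with all libraries to 1.32, and AU041133 from 2.12 to 2.39, and 3 unnamed Gm genes were also higher. Acp2, a lysosomal phosphatase, was at -1.02 without the library and -2.03 with it, and Traf3, an adaptor of innate immune signalling, at -1.10 and -0.87. The third lower gene, 1810049J17Rik, had a group with 0 reads, so its fitted value is no measure of size. With each library left out in turn the change lay between -0.97 and -0.71 for Pabpc1, between -0.78 and -0.70 for Spop, and between -1.12 and -0.86 for mt-Nd1.

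The gene with the smallest p was Pabpc1 (ENSMUSG00000022283, chromosome 15, 36595661 to 36609668, mm10), the cytoplasmic poly(A)-binding protein that links the mRNA tail to the initiation complex. In input it measured 813 and 676 CPM in the Veh libraries and 1038, 1006 and 1009 CPM in the Rosi libraries. In polysome RNA it measured 462, 445 and 439.7 CPM in Veh and 343, 362 and 328 CPM in Rosi. Rosi libraries were thus all above Veh in input and all below Veh in polysome RNA. The translational efficiency change was -0.83 ± 0.13 (SE; 95% interval -1.11 to -0.56), with an adjusted p of 0.163 by edgeR and 4.18e-06 by DESeq2. Pabpc1 is the gene of the C-rich 5′ end and the A-rich stretch printed above.

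Spop (chromosome 11, 95414080 to 95493406), the substrate adaptor of a cullin ubiquitin ligase, followed with -0.74 ± 0.13 (SE; adjusted p = 0.221 by edgeR and 2.35e-05 by DESeq2). Input held 129 and 127.6 CPM in Veh and 164.5, 169 and 155 CPM in Rosi. Polysome RNA held 167, 172.5 and 153 CPM in Veh and 127.6, 122.5 and 125 CPM in Rosi, again without overlap and in opposite directions. The difference within polysome RNA passed the adjusted p alone (log2 fold change -0.39 ± 0.08, SE; adjusted p = 0.0389), and that within input did not (0.35 ± 0.09, SE; adjusted p = 0.137).

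Epas1, the oxygen-regulated transcription factor HIF-2α whose 5′ UTR holds an iron-responsive element, had a change of -0.80 ± 0.19 (SE). Its input level was 69.5 and 63.1 CPM in Veh and 114, 96.6 and 112 CPM in Rosi, while polysome RNA was at 64.8, 70.4 and 92.5 CPM in Veh and 78.0, 68.7 and 66.1 CPM in Rosi. The groups separated in input and overlapped in polysome RNA. Ccnyl1, a cyclin Y relative (-0.66 ± 0.15, SE), and Kmt5a, the histone H4 lysine methyltransferase (-0.70 ± 0.16, SE), completed the lower side beside the mitochondrial mRNAs described next. By edgeR none of them had an adjusted p under 0.719.

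On the higher side the smallest p values belonged to AU041133, Samd9l, Rhobtb3, Cenph, Strn3 and Zmat1. Samd9l, an interferon-induced antiviral factor that restrains translation, was at 35.7 and 39.2 CPM in input Veh and 28.5, 22.9 and 21.9 CPM in input Rosi. In polysome RNA it stood at 37.6, 33.5 and 35.2 CPM in Veh and 38.6, 37.5 and 38.5 CPM in Rosi. The groups separated in input and overlapped in polysome RNA, for a change of 0.73 ± 0.16 (SE; adjusted p = 0.719 by edgeR and 0.0391 by DESeq2). Rhobtb3 (0.71 ± 0.17, SE) also separated in input (-0.48) and overlapped in polysome RNA (0.23). Strn3 (0.55 ± 0.14, SE), a subunit of the STRIPAK phosphatase complex, separated in both fractions, lower with Rosi in input (-0.37) and higher in polysome RNA (0.18). Cenph (0.93 ± 0.24, SE), a kinetochore protein, differed in that the larger part lay in polysome RNA (0.68, against -0.25 in input). The rare mRNAs AU041133 (2.12 ± 0.44, SE) and Zmat1 (1.51 ± 0.41, SE) were at 0.580 to 3.25 CPM in all libraries, and Zfp932, a zinc finger gene described below, had a change of 1.05 ± 0.29 (SE).

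**Figure D1:**
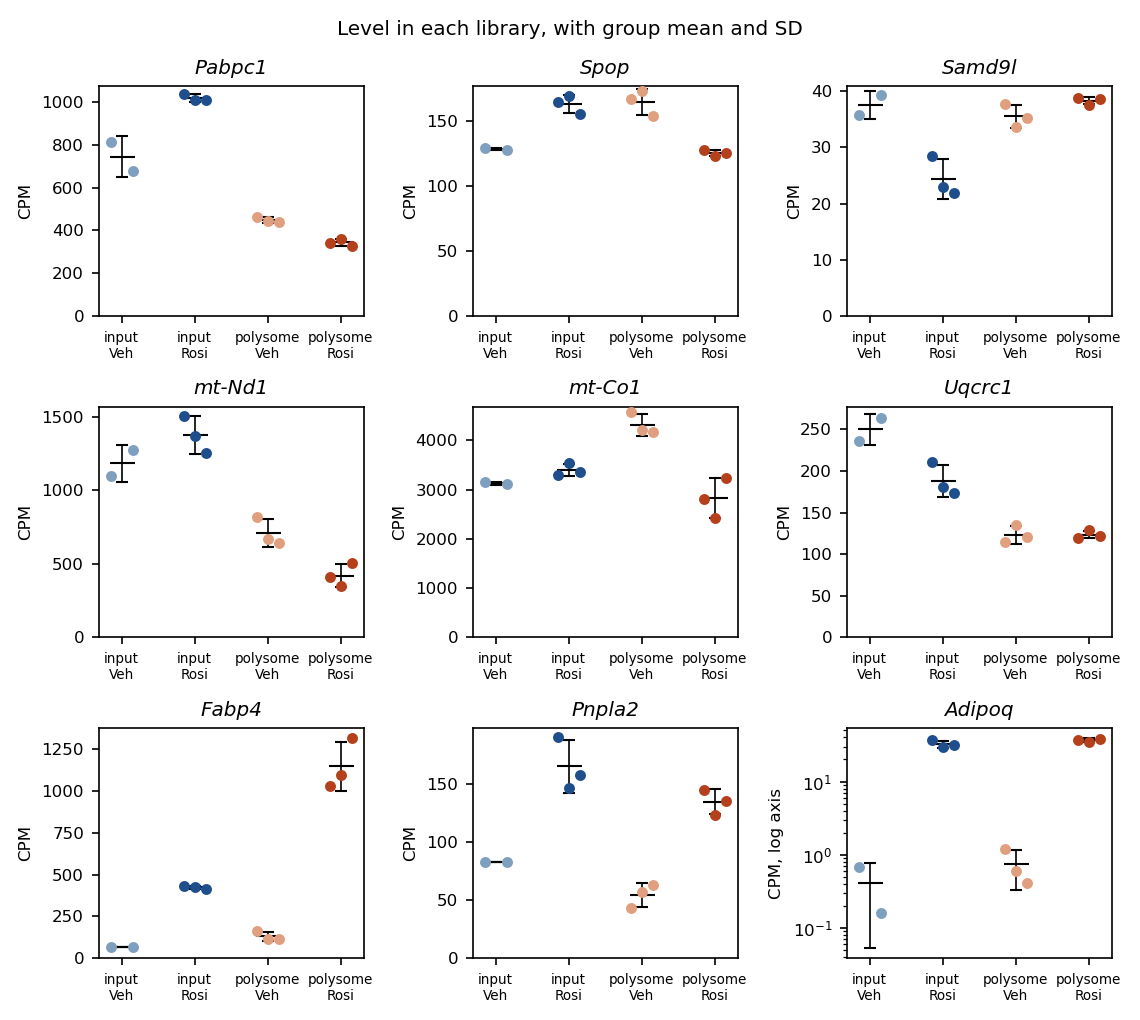
Level of 9 genes in each library (CPM, vertical axis, logarithmic for Adipoq and linear from 0 otherwise) by group, with points for libraries and a bar with whiskers for mean and SD (n = 2 for input Veh, n = 3 otherwise). Pabpc1 and Spop are higher in Rosi than in Veh in input and lower in polysome RNA, and Adipoq and Pnpla2 are higher in both.

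Among the lists with at least 9 tested members, the median farthest from 0 was that of the 13 protein-coding mRNAs of the mitochondrial genome. These are read by mitochondrial ribosomes inside the organelle and not by the cytosolic ribosomes that a gradient is meant to sample. All 13 had a change below 0 (40.9% of all genes did), with a median of -0.65, and 11 of 13 had an unadjusted p under 0.05 in the lower direction, beside 2.39% of all genes. None was called. Their median log2 fold change was 0.14 in input and -0.61 in polysome RNA. Their summed level was 12384 to 13440 CPM in input Veh, 12610 to 14940 CPM in input Rosi, 11079 to 14071 CPM in polysome Veh and 7314 to 10243 CPM in polysome Rosi. Thus the polysome Rosi libraries were lowest, while both input groups overlapped. For 5 of 13 every polysome Rosi library lay below every polysome Veh library (4.42% of all genes did). For 6 of 13 every input Rosi library lay above every input Veh library (12.7% of all genes did).

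mt-Nd1 (chromosome M, 2751 to 3707), a core subunit of complex I, measured 1096 and 1273 CPM in input Veh and 1510, 1370 and 1256 CPM in input Rosi. It measured 821, 666 and 646 CPM in polysome Veh and 409, 351 and 503 CPM in polysome Rosi. The change was -0.98 ± 0.20 (SE; 95% interval -1.40 to -0.55; adjusted p = 0.570 by edgeR and 0.0021 by DESeq2), and the difference within polysome RNA alone passed the adjusted p without passing 2-fold (-0.76 ± 0.13, SE; adjusted p = 0.00703). mt-Co1, the catalytic subunit of complex IV, was at 3147 and 3104 CPM in input Veh and 3302, 3546 and 3348 CPM in input Rosi. Its polysome levels were 4570, 4214 and 4161 CPM in Veh and 2805, 2428 and 3235 CPM in Rosi, with no overlap, and its change was -0.73 ± 0.15 (SE). The other members ranged from -0.99 for mt-Co2 to -0.46 for mt-Nd5.

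Part of the mitochondrial signal was assigned to nuclear copies. Among annotated nuclear genes 7 shared at least 50% of their 31-base stretches with a mitochondrial mRNA and held 131218 reads, equal to 4.88% of the 2686463 reads of the 13 mRNAs. In a fit chosen after seeing the data in which those reads were added back, the median change was -0.73, all 13 had an unadjusted p under 0.05, and the smallest adjusted p was 0.104 (mt-Co2, -1.18 ± 0.19, SE). Across all alternatives the list median stayed between -0.84 and -0.56.

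The nuclear-encoded partners of these proteins showed the opposite sign. Of the 80 tested genes for subunits of complexes I to V, 75 had a change above 0, beside 8299 of all 14042 genes. Their median was 0.30, beside 0.06 over all genes. At an unadjusted p under 0.05, 17 were higher (4.46% of all genes were) and 0 lower. Their median log2 fold change was -0.17 in input and 0.10 in polysome RNA, and across the alternatives the median change lay between 0.19 and 0.38. Uqcrc1, a core subunit of complex III, measured 237 and 264 CPM in input Veh and 210.2, 181 and 173 CPM in input Rosi, and 114, 135 and 120.0 CPM in polysome Veh and 119.9, 129 and 122 CPM in polysome Rosi. Its input levels separated and its polysome levels overlapped, for a change of 0.42 ± 0.15 (SE; adjusted p = 0.719). Uqcrq of complex III (0.45 ± 0.16, SE), the ATP synthase subunit Atp5j2 (0.51 ± 0.19, SE) and Sdhb of complex II (0.44) had similar values.

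Beside both shifts, 19 of 26 macrophage markers were lower in every input Rosi library than in every input Veh library (23.5% of all genes were), and the share of all reads from the mitochondrial genome was 1.15 to 1.41% in polysome Veh and 0.754 to 1.05% in polysome Rosi. The mitochondrial share is nearly the same quantity as the summed level of the mitochondrial-encoded mRNAs given above, so it is no separate measure of their shift. As in the reported fit, 0 genes were called in the fit that left out mitochondrial-encoded reads, so this count cannot show their part. The median change of the nuclear-encoded genes stayed between 0.19 and 0.38 over all alternatives, that fit included. The part of the macrophage markers in these results was not tested.

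**Figure D2:**
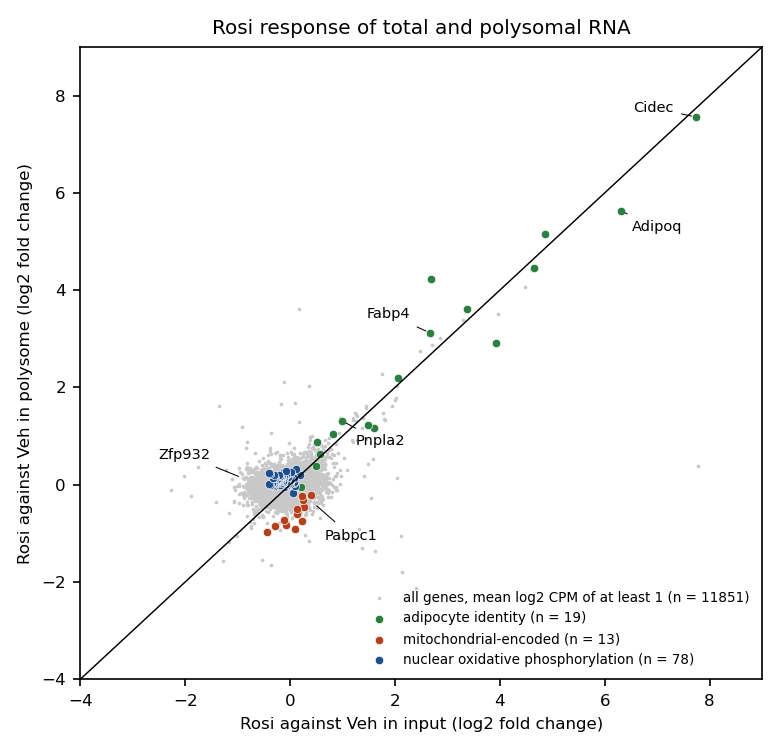
Log2 fold change of Rosi over Veh in polysome RNA (vertical) against input (horizontal) for 11851 genes whose mean log2 CPM reached 1, each point a gene and the diagonal no change in translational efficiency, with 1 gene (Gm28437) outside the axes. Many adipocyte genes lie near the diagonal and away from the origin, all 13 mitochondrial-encoded mRNAs lie below it, and most of the 78 nuclear oxidative phosphorylation genes shown lie above it.

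The next question was whether the adipocyte genes that Rosi raised in total RNA rose to the same extent on polysomes. In the joint fit 52 genes were called higher in input (0.37%) and 72 in polysome RNA (0.513%), 44 of them in both. The median change in translational efficiency was -0.18 for the 52 and 0.15 for the 72, each list being chosen on one of the values whose difference is the change. The 44 were chosen on both, so their values (22 above and 22 below 0, median 0.03) are a description. The 95% interval held 0 for 41 of the 44 and lay within 1 log2 unit for 21, so that for the others the interval reached a 2-fold change in efficiency. The 52 genes called in input had median log2 fold changes of 2.68 in input and 2.61 in polysome RNA.

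Adipoq (chromosome 16, 23146536 to 23158028), the hormone adiponectin, went from 0.673 and 0.160 CPM in input Veh to 36.3, 29.3 and 31.5 CPM in input Rosi. In polysome RNA it went from 1.20, 0.607 and 0.418 CPM to 37.2, 34.3 and 38.4 CPM. The 2 rises, 6.31 and 5.62 on the log2 scale, gave a change of -0.69 ± 0.54 (SE; 95% interval -1.85 to 0.46), in a gene with few reads in the Veh libraries. With 1 library left out at a time its change ran from -1.99 to 0.05, so that the sign turned. Cidec, which enlarges lipid droplets, rose by 7.73 and 7.56 (change -0.17 ± 0.40, SE), and Plin1, the coat protein of lipid droplets, by 4.86 and 5.16 (0.30 ± 0.44, SE; -0.28 to 0.87 with 1 library left out). Trarg1, which regulates glucose transporter trafficking, had one of the tighter intervals in this group (0.24 ± 0.22, SE; 95% interval -0.23 to 0.70).

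Fabp4, the fatty acid carrier of adipocytes, was measured well in Veh and Rosi. Its input level was 68.3 and 65.4 CPM in Veh and 433, 425 and 412 CPM in Rosi, and its polysome level 162, 115 and 117 CPM in Veh and 1029, 1097 and 1313 CPM in Rosi. The rise was 2.66 in input and 3.12 in polysome RNA, and the change of 0.46 ± 0.19 (SE; 95% interval 0.06 to 0.86) had an unadjusted p of 0.0259 and an adjusted p of 0.719. Acsl1, which activates fatty acids for lipid synthesis, lay on the other side at -0.33 ± 0.15 (SE; unadjusted p = 0.0422). The third of the 44 whose interval left out 0 was Slc36a2, an amino acid transporter, which had 0 reads in 1 of the 4 groups, so that its fitted value gives no size or bound. Retn, the adipokine resistin (95% interval -2.41 to 0.40), and Aqp7, the glycerol channel (-3.50 ± 2.31, SE), had wide intervals, and Aqp7 had 0 reads in both input Veh libraries.

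Pnpla2 (chromosome 7, 141455198 to 141460743), adipose triglyceride lipase, which starts the breakdown of stored fat, was at 82.8 and 82.5 CPM in input Veh and 190.4, 146 and 158 CPM in input Rosi. Polysome RNA held 43.3, 56.8 and 62.8 CPM in Veh and 145, 123 and 135 CPM in Rosi. Rosi libraries were above Veh in both fractions without overlap. The log2 fold change was 0.99 in input and 1.31 in polysome RNA, and the difference between them was 0.31 ± 0.20 (SE; 95% interval -0.11 to 0.73; unadjusted p = 0.132; adjusted p = 0.747).

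As lists, the 23 tested adipocyte identity genes had a median change of 0.06, equal at 2 decimals to that of all genes, with medians of 2.06 in input and 1.98 in polysome RNA, and an unadjusted p under 0.05 was reached by 1 higher and 0 lower members, beside 4.46% and 2.39% of all genes, which also stand beside the lipid lists that follow. The sign of this median turned in some alternatives, which ranged from -0.13 to 0.22. For 29 PPARγ targets the median was 0.05, with 3 higher and 2 lower. Among these Ehhadh, a peroxisomal enzyme of fatty acid oxidation, was at -0.85 ± 0.28 (SE) and Fabp5, an epidermal type fatty acid carrier, at 0.40 ± 0.16 (SE). Of 18 lipolysis and lipid droplet genes 1 was higher and 0 lower (median 0.12), of 19 triglyceride synthesis genes 2 and 2 (median -0.06), of 24 fatty acid oxidation genes 1 and 1 (median 0.12), and of 14 fatty acid synthesis genes 0 and 0 (median -0.04). Dgat1, which makes triglyceride from diglyceride, stood at 0.42 ± 0.17 (SE), with log2 fold changes of 0.35 in input and 0.77 in polysome RNA, and the droplet coat protein Plin3 stood at 0.44 ± 0.15 (SE).

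**Figure D3:**
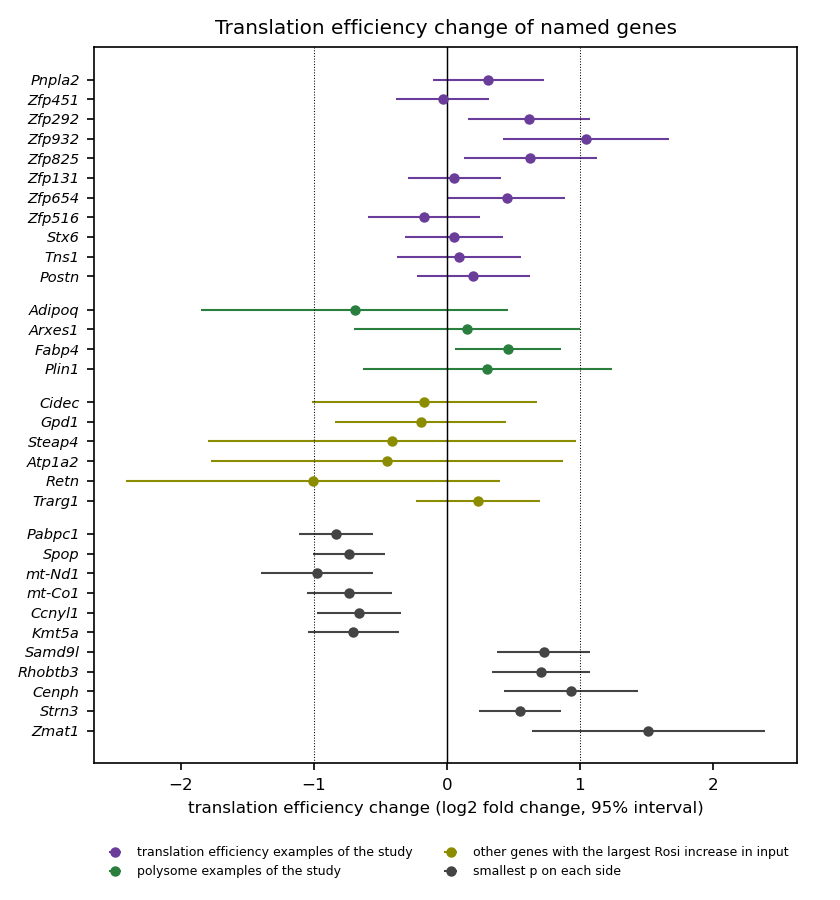
Translational efficiency change (log2, horizontal axis) with its 95% interval for example genes of changed translation and of polysome RNA, the genes with the largest Rosi increase in input, and the genes of smallest p, with dotted lines at 1 log2 unit on either side of 0. The intervals of Adipoq, Plin1 and Cidec are wide and hold 0, and those of Pabpc1 and Spop lie wholly below 0.

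The 11 genes that the study named as examples of changed translation were chosen on these samples, so their values are a description. At the level of the whole gene 9 of 11 lay above 0, with a median of 0.20, beside 8299 of all 14042 genes. An unadjusted p under 0.05 was reached by 4, beside 4.46% of all genes in the higher direction. The 4 were zinc finger genes: Zfp932 (1.05 ± 0.29, SE; 95% interval 0.42 to 1.67), Zfp825 (0.63 ± 0.24, SE), Zfp292 (0.62 ± 0.21, SE) and Zfp654 (0.45 ± 0.21, SE). In each of them the input value was below 0 (-0.91 to -0.38) and the polysome value near 0 (-0.09 to 0.14). For Zfp932 the input levels were 6.06 and 7.36 CPM in Veh and 4.14, 3.30 and 3.32 CPM in Rosi, and the polysome levels 12.4, 7.71 and 9.21 CPM in Veh and 9.46, 9.67 and 13.1 CPM in Rosi. The other genes had intervals that held 0, among them Zfp451 (-0.03; 95% interval -0.38 to 0.32), Stx6, a SNARE of endosome and Golgi transport (0.05), Tns1, a focal adhesion protein (0.09), and Postn, a matrix protein (0.20). The study called transcripts, and a transcript could differ from its whole gene. Tns1-209 had a change of 1.47 ± 0.32 (SE; adjusted p = 0.526 by edgeR). Zfp451-202 was at -0.10, Stx6-201 at -0.02 and Postn-204 at 0.07.

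The wider set of genes with a Zfp symbol, mostly zinc finger proteins, held 352 tested members. At an unadjusted p under 0.05, 47 were higher and 8 lower, beside 4.46% and 2.39% of all genes, their median was 0.14, and their quartiles were -0.13 and 0.50. Their median log2 fold change was -0.13 in input and 0.00 in polysome RNA. Zfp951 (1.10 ± 0.31, SE) and Zfp518a (1.00 ± 0.27, SE) were the members of smallest p beside Zfp932, and each had a log2 fold change of -0.80 or lower in input.

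In the translation machinery, counts of members with an unadjusted p under 0.05 are read beside the 4.46% higher and 2.39% lower of all genes. Of 84 cytosolic ribosomal protein genes 2 were higher and 2 lower (median 0.15), with Rpl38 at 0.49 ± 0.19 (SE) and Rplp1 and Rplp0, proteins of the ribosomal stalk, at -0.39 ± 0.16 and -0.38 ± 0.17 (SE). Of 78 mitochondrial ribosomal protein genes 72 were above 0 (median 0.16), beside 8299 of all 14042 genes, and 4 were higher. Of 53 initiation factors 0 were higher and 0 lower (median 0.14), the smallest adjusted p being 0.728. Of 19 elongation factors and poly(A)-binding proteins 3 were lower, namely Pabpc1, Eef1a2 (-0.70 ± 0.30, SE) and Pabpc4 (-0.38 ± 0.18, SE). A mixed list of integrated stress response genes and mRNAs with upstream open reading frames had 0 of 20 on either side (median 0.06). The same held for 20 ER chaperones (0.09), 24 cholesterol synthesis genes (0.07) and 18 G-quadruplex binding proteins (0.11). Of 20 selenoproteins, which need recoding of a stop codon, only Selenow passed an unadjusted p under 0.05 (-0.50 ± 0.21, SE).

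Among iron-responsive genes 3 of 11 were higher and 1 lower by the same measure (4.46% and 2.39% of all genes). Tfrc, the transferrin receptor, was at 0.44 ± 0.17 (SE), Cdc14a at 0.85 ± 0.32 (SE), and Sdhb was the other higher gene. Immediate early genes, whose mRNAs are short-lived, had 26 of 31 members below 0 (40.9% of all genes) and a median of -0.13. The 3 members that passed an unadjusted p under 0.05, beside 2.39% of all genes in the lower direction, were Klf4 (-0.48 ± 0.17, SE), Btg2 (-0.47 ± 0.19, SE) and Myc (-0.39 ± 0.17, SE).

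Of 26 macrophage markers 25 had a change above 0 (median 0.18), beside 8299 of all 14042 genes. Their medians were -0.41 in input and -0.16 in polysome RNA. Clec7a, the β-glucan receptor of myeloid cells, was the 1 with an unadjusted p under 0.05 (0.77 ± 0.22, SE), beside 4.46% of all genes higher. Of 50 lysosomal genes 2 were higher and 2 lower by that measure (median 0.15), beside 6.84% of all genes on both sides. Of 16 adipose progenitor markers 1 was higher, the semaphorin Sema3c (0.59 ± 0.17, SE; median of the list 0.11). Of 29 collagens Col6a2 was higher (0.54 ± 0.20, SE) and Col4a5 lower (-0.43 ± 0.19, SE). Both lists stand beside 4.46% higher and 2.39% lower of all genes.

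**Figure D4:**
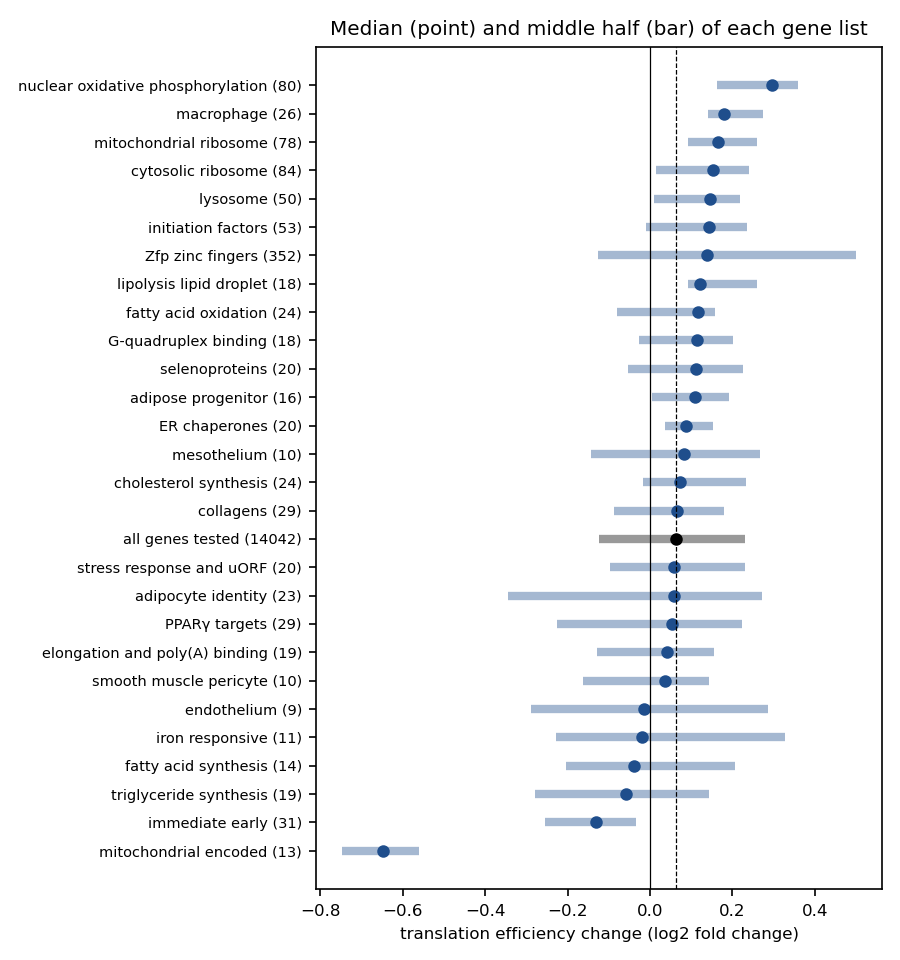
Median translational efficiency change (log2, horizontal axis) of each gene list with at least 9 tested members, the lists of the study's examples left out. The bar runs between the quartiles of the members, and the dashed line is the median over all genes (0.06). The mitochondrial-encoded list lies far to the left at -0.65, and the nuclear oxidative phosphorylation list has a median of 0.30.

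The study tested single transcripts, so the same fit was run on these. Of 34654 transcripts 2 were called higher (0.00577%) and 7 lower (0.0202%), while 1757 (5.07%) had an unadjusted p under 0.05. Precision was lower than for genes, with a median SE of 0.682, and the 95% interval lay within 1 log2 unit for 29.3% of transcripts.

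All 9 called transcripts had 0 estimated reads in every library of one group, which held for 10.2% of the transcripts tested and for 36.3% of those with an unadjusted p under 0.05. Their fitted log2 fold changes depend on how 0 is treated, so folds are given against a floor of 3 reads over that group. The floor covers counting error of that group only. It covers neither the spread of the other groups nor the division of reads among isoforms, so these folds are no lower bounds. Across the alternatives the fitted values nearest 0 were 2.16 for Tcf12-220, -1.38 for Hus1-201, -0.87 for Mbnl1-207 and -8.08 for Pfas-205.

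Tcf12-220 (chromosome 9, 71844277 to 72111807), a transcript of the transcription factor Tcf12 annotated to nonsense-mediated decay, held 105 and 269 reads in input Veh and 0 in each input Rosi library. In polysome RNA it held 512, 612 and 488 reads in Veh and 703, 701 and 680 reads in Rosi. Against the floor its change was 267-fold higher (adjusted p = 0.0087), yet the gene as a whole was at 0.10 ± 0.14 (SE). Tcf12-201 held 1080 reads in input Veh, 2616 in input Rosi, 1968 in polysome Veh and 2200 in polysome Rosi. Plxdc2-204, annotated as a processed transcript of a plexin domain receptor, was the other higher call, with 87 and 86 reads in input Veh, 0 in input Rosi, 261, 185 and 119 in polysome Veh and 210, 260 and 267 in polysome Rosi (at least 125-fold, adjusted p = 0.0181).

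Hus1-201 (chromosome 11, 8993137 to 9011191), the coding transcript of a clamp subunit of the DNA damage checkpoint, had the smallest adjusted p, 0.000856. It held 0 reads in both input Veh libraries and 115, 154 and 120 in input Rosi. In polysome RNA it held 164, 179 and 187 reads in Veh and 223, 208 and 168 in Rosi. Against the floor its change was 69.2-fold lower. Another transcript of the gene, Hus1-203, had 172 reads in input Veh, 45 in input Rosi and 0 in both polysome groups. The gene as a whole was at -0.28.

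The same form, 0 reads in input Veh and reads in the other 3 groups, held for Tfpi-204, Epha4-205, Pfas-205, Mbnl1-207 and Jak3-202. Their folds against the floor were between 33.1-fold (Mbnl1-207) and 68.2-fold (Tfpi-204), with adjusted p between 0.0075 and 0.0459. Jak3-202, of the cytokine receptor kinase Jak3, held 48, 45 and 86 reads in input Rosi, while Jak3-203 held 191 reads in input Veh and 0 in the other groups. Likewise Epha4-201 held 57 and 49 reads in input Veh and 0 in the other groups. Tmem164-202 differed in that polysome Rosi was the group at 0, against 212, 127 and 105 reads in polysome Veh. It held 300 and 159 reads in input Veh and 157, 173 and 218 in input Rosi (107-fold lower against the floor, adjusted p = 0.0459). For none of the 9 did the gene as a whole have an unadjusted p under 0.05 or an absolute change over 1. Of all 34654 transcripts tested, 2299 were of genes with such a p and 577 of genes with such a change. The 0 of 9 is thus close to the shares over all transcripts.

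**Figure D5:**
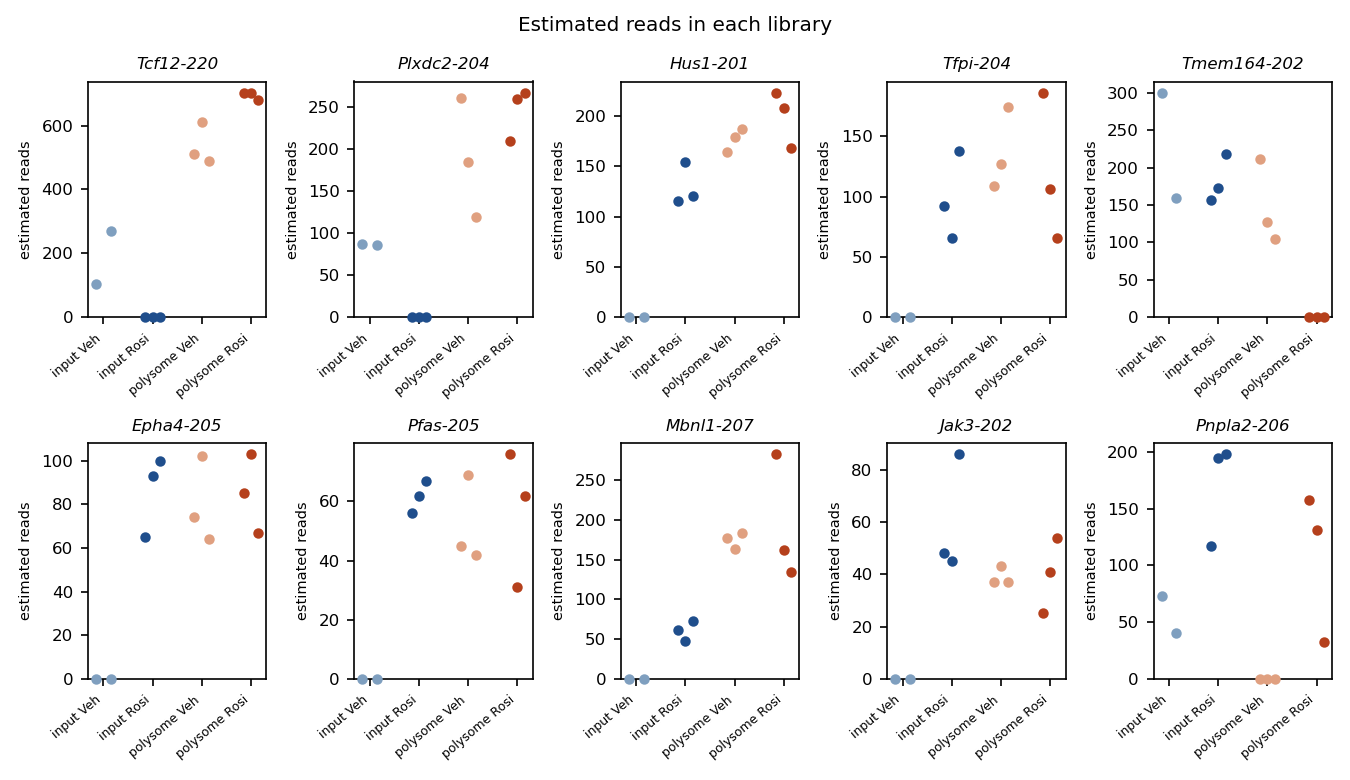
Estimated reads of the 9 called transcripts and of Pnpla2-206 in each library (vertical axis, linear from 0) by group, each point a library. In every panel one group lies at 0 in all its libraries, which is input Veh for 6 of the 9 called transcripts and polysome Veh for Pnpla2-206.

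With no minimum fold 10 transcripts passed (0.0289%), which added 1 that was measured in every group, Spop-201 (-0.79 ± 0.09, SE; adjusted p = 0.0378). Zfp451-206, of a zinc finger gene, missed the call (adjusted p = 0.0783). For this transcript the input libraries gave 96 and 53 reads with Veh and 0 with Rosi. The polysome libraries gave 125, 131 and 57 reads with Veh and 136, 270 and 100 with Rosi. The G runs printed above are of another transcript of this gene, Zfp451-202, which had a change of -0.10. The Pnpla2 transcript that the study singled out, Pnpla2-206 (chromosome 7, 141455219 to 141458938), held 73 and 40 reads in the input Veh libraries, 117, 195 and 198 in input Rosi, 0 in each polysome Veh library and 158, 131 and 32 in polysome Rosi. Its change was at least 39.3-fold higher, with an adjusted p of 0.189 by edgeR and 0.000101 by DESeq2. It held a small part of the gene's reads, since Pnpla2-201 had 1708 and 7170 reads in Veh and Rosi input and 2014 and 5763 in Veh and Rosi polysome RNA, with a change of 0.17. The 30 bases printed for Pnpla2-206 are also bases 30 to 59 of the 5′ UTR of Pnpla2-203, which had 854 reads in polysome Veh and a change of 0.67 ± 0.60 (SE).

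DESeq2, the tool the study used, called 256 transcripts on the 11 libraries, 92 higher and 164 lower, and all 9 edgeR calls were among them. Of the 256, 185 (72.3%) had a group with 0 reads in every library. For 7 the gene as a whole had an absolute change over 1, beside 577 of all 34654 transcripts tested. For 33 the gene had an unadjusted p under 0.05, beside 2299 of all transcripts tested. With all 12 libraries as deposited DESeq2 called 469, of which 305 (65.0%) had a group with 0 reads in every library.

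Transcript classes differed little in their medians, which were 0.01 for 25931 protein-coding transcripts, -0.10 for 2409 annotated to nonsense-mediated decay, -0.06 for 3560 with a retained intron and -0.04 for 2320 processed transcripts. The share with an unadjusted p under 0.05 was 3.95 to 5.31% over the classes. Coding transcripts had a median SE of 0.500 and a group at 0 in 8.66%, against 1.63 and 17.1% for the decay class.

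Features that the fit did not use were set beside the change for coding transcripts whose mean log2 CPM reached 1 and which had reads in every group. The longer the 3′ UTR, the lower the change tended to be (Spearman's rank correlation -0.13 across 15926 transcripts, a description, since transcripts of one library share its depth and base composition). From the shortest to the longest of 5 groups of about equal size the median went from 0.10 to -0.04. The rank correlation was -0.08 for transcript length, -0.05 for 5′ UTR length, -0.01 for coding length, -0.07 for the GC content of the 5′ UTR and -0.05 for its G content.

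The 5′ UTR motifs were searched on the mRNA strand alone. A G-quadruplex pattern, with GGG 4 times and 1 to 7 bases between, was in 1244 of 15880 5′ UTRs (7.83%), Stx6-201 among them, with a median change of -0.02 against 0.03 in those without it. A single GGG, which every G-quadruplex pattern also holds, was in 90.1%, with 0.02 against 0.05. A TOP pattern, a C at the annotated first base followed by at least 4 pyrimidines as in Pabpc1-201, was in 370 (2.33%), with 0.04 against 0.02. Only 20 transcripts of the cytosolic ribosomal protein list held it (12.8% of them, median 0.06), so the search by annotated first base found few of the mRNAs known for this motif. These differences between medians were small beside the spread of single transcripts, whose quartiles were -0.20 and 0.22.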

How the data were processed

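Poly(A) libraries of input and polysome RNA were compared. The authors demultiplexed reads with bcl2fastq 2.17, ran FastQC, estimated transcript abundance with Salmon (mm10) and used DESeq2 for tests, and the versions of the last 3 tools are not given in the sources used here. The authors deposited an estimated count per transcript and library, and these estimated counts were rounded and tested here. The TPM values deposited by the authors were used only in an alternative. Salmon divides reads shared by isoforms or gene copies by probability, so a transcript can be given 0 reads. Strandedness was not stated. The series design text gives fewer days of culture than the protocols, and day 4 was kept. Libraries titled with the tissue name alone were taken as polysome, since the others are titled input.

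Of 117135 transcripts 115973 matched GENCODE M21 (mm10) and 1162 did not (0.381 to 0.464% of reads), and 52619 had an annotated 5′ UTR of at least 20 bases. Counts were tested with edgeR 4.0.16 (R 4.3.3), with filterByExpr, TMM factors and a two-sided quasi-likelihood F test in 1 fit of 4 groups. Adjusted p-values (Benjamini-Hochberg) run over all features tested, and a call needs an adjusted p under 0.05 together with a change of over 1 log2 unit. These are the limits of the study's efficiency test, used here also for Rosi against Veh within each fraction, where the study took a lower limit of change. SE is the size of the log2 change divided by the square root of F, and intervals are 95%. Alternatives were DESeq2 1.42.0, other factors and filters, each library left out, a replicate block, all 12 libraries, limma 3.58.1 on log2(TPM + 1), mitochondrial reads left out, and nuclear copies added, the last chosen after seeing the data. The script was tested on simulated data.

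Members and lists were chosen with earlier results of these data known. Genes and transcripts named were, among those whose mean log2 CPM reached 1 and whose gene has a name, those called (up to 10 a side) or, with fewer than 6 called, the 6 of smallest p on a side, the study's examples, the 8 genes with the largest and 4 with the lowest called Rosi change in input, and the 3 or fewer members of each list with the smallest p, not all of them described. Slc36a2, other members of the lists and other isoforms, and genes called only in an alternative were named after their values were seen. Same-numbered libraries did not deviate together in a weak check, so no pairing was used. The article describes input as taken before fractionation, so input and polysome libraries may share cultures.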

Additional observations from a re-analysis of the deposited data

Results flagged for a closer look

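The 9 called transcripts are listed again because the change with Rosi in input and that in polysome RNA, which this test compares, differed, and because the fitted value of each rests on a group at 0. The fitted log2 fold changes were 10.94 for Tcf12-220 and 9.87 for Plxdc2-204, and -9.90 for Hus1-201, -9.89 for Tfpi-204, -9.64 for Tmem164-202, -9.37 for Epha4-205, -8.86 for Pfas-205, -8.86 for Jak3-202 and -8.85 for Mbnl1-207. These values depend on the treatment of 0 and are no bounds. The group at 0 was input Rosi for Tcf12-220 and Plxdc2-204, polysome Rosi for Tmem164-202 and input Veh, with n = 2, for the other 6. No gene of the 9 passed an unadjusted p under 0.05 as a whole, and of all 34654 transcripts tested 2299 were of genes that did.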

How the results depend on the processing

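For genes, 0 were called in the reported fit and in 21 of 24 alternatives. DESeq2 on all 12 libraries called 6, no count filter 57 and the fit without polysome Veh replicate 1 called 9, so that the fits that left out 1 library gave 0 to 9. For transcripts, where 9 were called, DESeq2 called 256, DESeq2 on all 12 libraries 469, no count filter 21, all 12 libraries as deposited 20 and limma on log2(TPM + 1) 1. Leaving out 1 library gave 5 to 48 transcripts, with 5 without polysome Rosi replicate 3, 42 without input Veh replicate 1 and 48 without input Veh replicate 2, each of which left 1 library in that group, assumed to vary like the others. Same-numbered libraries showed no shared deviation (r of -0.233 to 0.114 over 15 pairs). That check is weak, since deviations were taken from means of 2 or 3 libraries and the number of 1 input Veh file is unknown. With the replicate block 0 genes and 0 transcripts were called, whether the doubled input Veh file was numbered 2 or 3. The cause of these changes was not tested. No called value turned its sign, but the group at 0 in each largely sets that sign beforehand, so this is no test of it. Depth and the number of libraries limit rare transcripts most, and input Veh, with n = 2, limits every value.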
